A study of Mus musculus with 4 samples.

Results

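The data described here are the difference between day 7 and day 3 in MC3T3-E1 mouse pre-osteoblasts that were kept in citalopram throughout. The difference was taken as the log2 value of the citalopram array at day 7 minus that of the citalopram array at day 3, so it rests on 2 of the 4 arrays of the study, and it was described for 19938 named genes. The other pair of arrays, untreated cells at day 3 and day 7, served as the comparator. MC3T3-E1 is a line established from the skull bone of C57BL/6 mice. The treated cells received citalopram at 100 µM (0.0001 mol per litre) in proliferation medium, and the untreated cells received that medium with nothing added. All cells were grown in alpha-MEM with antibiotics and a low share of fetal bovine serum, on plates that held 3 untreated and 3 treated wells. Each treatment and day had 1 array. The sources used here do not say whether wells were pooled, and a cell line in proliferation medium is a model of growing precursors, not of mineralising bone. With 1 array per group, the citalopram difference has no replicate check and carries no p-value.

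Citalopram blocks the serotonin transporter and belongs to the selective serotonin reuptake inhibitors. It is also a cationic amphiphilic molecule, and drugs of that kind collect in acidic lysosomes. Pre-osteoblasts in culture first divide, and after they reach confluence they leave the cell cycle, lay down a matrix rich in type I collagen and then turn on genes of mineral deposition. A day 7 against day 3 contrast therefore joins time, density and, in the treated wells, the length of exposure, and these cannot be told apart here.

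Levels are log2 values of the array signal. Genes were counted only where the brighter array of a pair was at or above a floor, set at the 40th percentile of named genes on each array (5.95 to 6.01), and 12187 genes met this in the citalopram pair. The median level over named genes was 6.90 on both citalopram arrays, and Pearson's r between them over all features was 0.986, the lowest of the 6 pairs of arrays. In bulk RNA, fewer cells of a type and less RNA per cell cannot be told apart. Of 16 pre-osteoblast markers listed, 13 were measured, and 11 of these reached the floor in citalopram, with a median level of 12.1 at both days. No values are given here for Runx2, Bglap and Spp1, which are on that list. Sp7, the transcription factor needed for bone-forming cells, read 8.24 at day 3 and 7.79 at day 7. Alpl and Ibsp, the alkaline phosphatase and bone sialoprotein genes of later differentiation, did not reach the floor in citalopram. Markers of other lineages reached the floor in 9 of 16 for chondrocytes, 4 of 12 for adipocytes and 2 of 9 for endothelium. For macrophages and osteoclasts 3 of 12 did, for smooth muscle 5 of 8, for skeletal muscle 7 of 12 and for neural cells 3 of 9. Over all named genes 12187 of 19938 did. Acta2, a smooth muscle marker, reached 13.98, close to the highest pre-osteoblast marker level of 14.07. The summed linear level of the epithelial markers went from 2131 to 4297, with 5 of 10 at the floor, and most of that sum came from Cdsn, described further on.

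The citalopram pair moved over a wider range than the untreated pair. With citalopram 53 genes were 2-fold higher or more at day 7 (0.435% of those counted) and 46 were 2-fold lower or more (0.377%). In the untreated pair 32 genes of 12201 were 2-fold higher (0.262%) and 16 were 2-fold lower (0.131%). At 1.5-fold the counts with citalopram were 244 higher (2.0%) and 342 lower (2.81%), and without it 142 (1.16%) and 138 (1.13%). By any amount, 44.2% of genes were higher and 55.8% lower with citalopram, and 47.2% were higher and 52.8% lower without it. The shares in this paragraph are the reference for the counts given for gene lists. The median difference over all genes was -0.04 with citalopram and -0.01 without, with an SD across genes of 0.30 and 0.24. Whether the 2 spreads differ beyond array error was not tested.

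The 2 courses shared their direction in part. The 2 differences share no array, and over 11977 genes past both floors 64.9% had the same sign in both. They correlated with Pearson's r of 0.57 and Spearman's rho of 0.46, across genes that are not independent replicates, and the slope of the citalopram difference on the untreated one was 0.70. Of the 52 genes 2-fold higher with citalopram and past both floors, 51 were also higher without it. Of the 45 that were 2-fold lower, 44 were also lower without it. Genes chosen for a large citalopram difference tend to have a smaller untreated one through that choice, so their relative size in the 2 courses is only described. At 1.5-fold, 87 genes were higher in both courses, which is 37.2% of the citalopram set and 61.7% of the untreated set. Lower in both were 65 genes, 19.4% of the citalopram set and 47.1% of the untreated set. Only 2 genes past both floors were 1.5-fold lower with citalopram and 1.5-fold higher without it, the chemokine genes Ccl2 and Ccl7, and 0 went the other way.

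A limma fit with additive terms for treatment and day used all 4 arrays and tested a day difference shared by both courses. It is the test behind the words rose and fell in the text, its adjusted p (Benjamini-Hochberg, over 12415 genes) is called the adjusted p, and it does not test a change particular to citalopram. It called 163 genes higher (1.31%) and 185 lower (1.49%) at day 7.

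**Figure D1:**
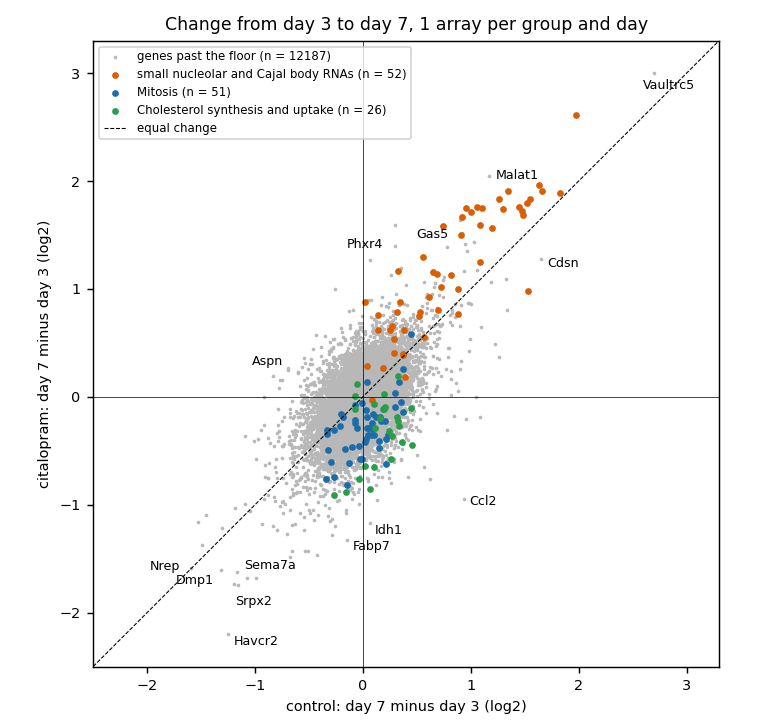
Day 7 minus day 3 (log2) without citalopram on the horizontal axis and with citalopram on the vertical axis, 1 point per gene for 12187 genes past the floor, with 3 groups coloured. Small nucleolar RNAs lie at the upper right, most of them above the line of equal change. Mitosis and cholesterol genes lie mostly below 0 on the citalopram axis and around or above 0 on the control axis.

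The highest and lowest genes were ranked without small nucleolar RNAs and microRNA genes, which are described further on. Of the 25 highest in that ranking 20 passed limma, and of the 25 lowest 20 did. Over all genes limma called 1.31% higher and 1.49% lower. The citalopram difference behind the ranking is part of the day difference that limma tests. The ranking itself thus favours passing, and these counts are only described. Cdsn, which codes for corneodesmosin, an adhesion protein of cornified epithelium, read 10.52 at day 3 and 11.80 at day 7 with citalopram, and 9.95 and 11.60 without it. It rose 2.43-fold in the treated cells (log2 difference 1.28, adjusted p 0.00144), with a larger untreated difference of 1.65. Thsd4, a microfibril-associated matrix protein, went from 7.49 to 8.67 with citalopram and from 7.09 to 8.15 without it (difference 1.17, adjusted p 0.00228). In both genes each day 7 array lay above each day 3 array.

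Flnc, an actin crosslinker of stretched cells, rose from 10.64 to 11.69 (difference 1.06, adjusted p 0.0131). Syne1, the nuclear envelope linker nesprin-1, rose from 8.70 to 9.66, and Tenm4, a teneurin of the cell surface, from 9.17 to 10.19, although the other Tenm4 feature differed by 0.69. Cisd1, an iron-sulphur protein of the outer mitochondrial membrane, rose from 9.69 to 10.80 (adjusted p 0.00842). In these 4 genes the untreated difference had the same sign and was smaller. Cbr3, a carbonyl reductase, rose from 7.90 to 8.99. Rpph1, the RNA of ribonuclease P, read 12.12 and 13.18 with citalopram and 11.82 and 13.01 without it, so its difference was 1.06 in the treated cells and 1.19 in the untreated cells.

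At the other end, Havcr2, the immune receptor TIM-3, had the largest negative difference of the named genes and fell from 10.13 to 7.93 with citalopram and from 9.80 to 8.55 without it (differences -2.20 and -1.25, adjusted p 0.00523). Both day 7 arrays lay below both day 3 arrays. Nrep, a small protein linked to TGF-beta signalling, read 10.80 and 9.21 with citalopram and 11.17 and 9.58 without it. It fell by the same 1.59 in both courses (adjusted p 0.000551). Apln, the peptide ligand apelin, fell from 10.11 to 8.68 with citalopram against 9.86 to 9.35 without it (differences -1.43 and -0.51, adjusted p 0.0429). Nppb, the natriuretic peptide BNP, fell from 8.56 to 7.13 with citalopram and from 8.83 to 8.29 without it. Pde2a, a phosphodiesterase that breaks down cyclic nucleotides, fell from 10.07 to 8.64, and the untreated difference was -0.65. For these last 3 genes the citalopram difference was more than 2-fold and the untreated one was below it.

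Mcam, an adhesion molecule of perivascular and stromal cells, went from 10.02 to 8.76 (difference -1.27, adjusted p 0.0139). Gpr39, a zinc-sensing receptor, went from 8.23 to 7.00, and Nipa1, a magnesium transporter, from 8.20 to 6.98, with untreated differences of -0.79 and -1.31. Mtx2, a subunit of the mitochondrial outer membrane import machinery, went from 12.43 to 11.23 (adjusted p 0.0063). Of these 4 genes Nipa1 alone fell by more in untreated cells. Idh1, the cytosolic isocitrate dehydrogenase that makes NADPH, was 11.71 and 10.54 with citalopram but 10.97 and 11.03 without it. Its difference was -1.17 with citalopram and 0.06 without it, and the day difference shared by both courses did not pass limma (adjusted p 0.244). The citalopram array was above the untreated one at day 3 and below it at day 7. Fabp7, a fatty acid carrier, was likewise above the untreated array at day 3 and below it at day 7, at 8.22 and 6.90 with citalopram and 7.28 and 7.14 without it.

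Small nucleolar RNAs guide the chemical modification of ribosomal RNA, and small Cajal body RNAs do the same for spliceosomal RNA. Most of them are cut from introns of other genes. Of these RNAs, 52 reached the floor in the citalopram pair, and their median difference was 1.13. At day 7, 51 of 52 were higher, against 44.2% of all genes. Of the 52, 43 were 1.5-fold higher or more, against 2.0%, and 28 were 2-fold higher or more, against 0.435%. In untreated cells all 52 were higher, against 47.2%, with a median of 0.74, and 31 were 1.5-fold higher, against 1.16%. Limma called 35 of the 52 higher, against 1.31% of all genes. The citalopram difference was above the untreated one in 47 of 52, against 45.1% of all genes.

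Snora74a read 7.86 at day 3 and 10.47 at day 7 with citalopram, and 7.95 and 9.92 without it, a 6.12-fold rise in the treated cells (adjusted p 0.000551). Snord53 went from 7.32 to 9.29, Snora20 from 7.08 to 8.99 and Snora73a from 8.94 to 10.84, each with the day 7 arrays above both day 3 arrays. The lowest was Snord16a, at 10.35 and 10.32, followed by Snord85 with a difference of 0.18, Scarna13 with 0.27 and Snora7a with 0.28. None of these 4 passed limma.

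Where both were measured past the floor, most genes that overlap these small RNAs did not move with them. By RefSeq gene positions, taken without strand, 51 of the 52 overlap a longer gene. Of these, 26 overlap 1 that was itself measured past the floor, 22 distinct genes in all. Snhg4, Snhg3 and Snhg6, which overlap Snora74a, Snora73a and Snord87, were not among them. The 26 small RNAs had a median difference of 1.15 and the overlapping genes one of -0.01, with a range from -0.61 to 1.52. In 25 of the 26 pairs the small RNA differed by more, and 22 of the 26 small RNAs but 1 of the 22 overlapping genes were 1.5-fold higher. Snora20 differed by 1.91 and Tcp1, a chaperonin subunit, by -0.26. Snora62 differed by 1.79 and the ribosomal protein gene Rpsa by -0.04. Snord15a differed by 1.71 and Rps3, another ribosomal protein gene, by -0.08.

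**Figure D2:**
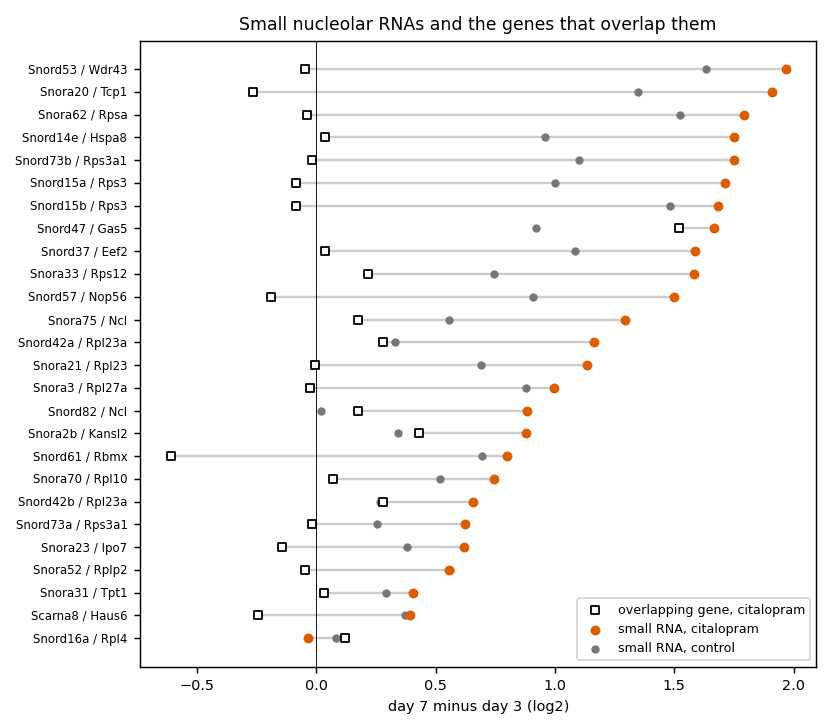
Day 7 minus day 3 (log2) for 26 small RNAs and the gene that overlaps each, in the citalopram pair, with the small RNA's difference in untreated cells as a grey point. The small RNAs lie to the right of their overlapping gene in 25 of 26 pairs, and most overlapping genes lie near 0.

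The exception among the overlapping genes was Gas5, a non-coding RNA that carries many small nucleolar RNAs in its introns. Its brightest feature went from 11.33 to 12.84 and its 4 features differed by 0.67 to 1.52. Of 14 small nucleolar RNA host genes past the floor, 12 were higher, against 44.2% of all genes, and 4 were 1.5-fold higher, against 2.0%. Their median was 0.28 with citalopram and 0.10 without it. Snhg15 rose from 7.86 to 8.46, and Snhg17 rose from 8.54 to 9.36 by its brightest feature, while its 3 features ranged from -0.29 to 1.17. Eif4a2, a translation initiation helicase gene that hosts small nucleolar RNAs, was 11.63 and 12.38 with citalopram and 12.02 and 12.09 without it, and did not pass limma (adjusted p 0.193). Host genes that code for abundant proteins stayed close to their day 3 level, such as Eef2 (0.04), Hspa8 (0.04) and Tpt1 (0.03).

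Of 7 nuclear long non-coding RNAs past the floor, 5 were higher with citalopram and 4 without it, with medians of 0.39 and 0.10. Malat1, an RNA of nuclear speckles, read 11.24 and 13.28 with citalopram and 11.33 and 12.50 without it, and Lncpint, a p53-induced RNA, 8.20 and 9.61 against 7.98 and 8.93. Both rose (adjusted p 0.00534 and 0.00504). Airn differed by 0.39, Tug1 (-0.18) and Norad (-0.30) were lower, Pvt1 was 0.49 by its brighter feature and -0.35 by the other, and Meg3 and Rian did not reach the floor. Over 270 long non-coding RNAs past the floor the median difference was -0.01, with 22 that were 1.5-fold higher, against 2.0% of all genes, and 3 that were 1.5-fold lower, against 2.81%. In untreated cells 12 were 1.5-fold higher and 4 lower. Genes for proteins of the spliceosome and nuclear speckles were higher in 19 of 26, against 44.2% of all genes. Their median was 0.19 with citalopram and 0.02 without it. Pnisr (0.63), Son, a speckle scaffold (0.57), and Ccnl1, a cyclin of splicing regulation (0.50), led them, and 0 of the 26 passed limma.

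Features without a gene symbol shared this direction. Of 7812 such features past the floor, 989 (12.7%) were 2-fold higher at day 7 with citalopram and 306 (3.92%) were so without it, with 151 in both. At least 2-fold lower were 29 and 45. The sources used here do not say what these features read, and the part that unspliced or nuclear RNA plays in the differences of the small RNAs was not tested.

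MicroRNAs are short RNAs that pair with messenger RNAs through their seed, bases 2 to 8. Of 114 microRNA genes past the floor, 17 were 1.5-fold higher at day 7 with citalopram and 0 were 1.5-fold lower, against 2.0% and 2.81% of all genes. The class median was 0.05 with citalopram and 0.17 without it, with 66 and 90 of the 114 higher. The day 7 minus day 3 difference of the class as a whole was thus larger in untreated cells. Past 1.5-fold higher there were 5 microRNA genes in untreated cells, against 1.16% of all genes. Of the 17, 15 were higher in untreated cells too, by up to 0.96, and 8 passed limma. The sources used here do not say whether a feature reads the primary transcript, the hairpin or the mature RNA. The mature sequences shown are those of the gene with the largest difference, of genes that share a seed, and of genes whose difference was absent or opposite in untreated cells. They are from RefSeq on GRCm38.p6, 5′ to 3′, with the seed in capitals.
miR-365-3p of Mir365-1 (chr16:13453895-13453916, + strand): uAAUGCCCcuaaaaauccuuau
miR-15a-5p of Mir15a (chr14:61632075-61632096, - strand): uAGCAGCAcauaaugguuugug
miR-15b-5p of Mir15b (chr3:69009775-69009796, + strand): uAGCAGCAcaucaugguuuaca
let-7d-5p of Mirlet7d (chr13:48536078-48536099, - strand): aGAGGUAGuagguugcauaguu
let-7e-5p of Mirlet7e (chr17:17830366-17830387, + strand): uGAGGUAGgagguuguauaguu
miR-218-5p of Mir218-1 (chr5:48223966-48223986, + strand): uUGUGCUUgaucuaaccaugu
miR-125b-5p of Mir125b-1 (chr9:41581940-41581961, + strand): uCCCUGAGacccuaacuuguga

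Mir365-1 read 6.12 and 7.76 with citalopram and 6.43 and 7.33 without it, and rose by 1.64 (adjusted p 0.00857). Mir15a and Mir15b, which share the seed AGCAGCA, went from 7.39 to 8.55 and from 5.70 to 6.36, and both passed limma. Mir15a lies in Dleu2, a long non-coding RNA gene that differed by 0.04, and Mir15b lies in Smc4, a condensin subunit gene that differed by -0.31. Mirlet7d and Mirlet7e share the seed GAGGUAG and were higher by 0.61 and 0.65, without passing limma. Mir218-1 was 5.67 and 6.67 with citalopram but 6.10 and 5.84 without it, and Mir125b-1 was 6.29 and 7.10 against 6.62 and 6.53. Both had the lowest of the 4 values on the citalopram day 3 array. Over the 10 of these genes with an overlapping gene past the floor, 4 lay in a gene that was itself 1.5-fold higher, among them Mir708 in Tenm4 (1.02) and Mir100 and Mir125b-1 in the transcript Mir100hg (0.93).

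Cell cycle genes were lower at day 7 in the treated cells and close to level in the untreated cells. Of 51 mitosis genes, all of which reached the floor, 46 were lower with citalopram, against 55.8% of all genes, and 22 were lower without it, against 52.8%. Their median difference was -0.29 with citalopram and 0.03 without, and the citalopram difference was the lower in 46 of 51, against 54.8% of all genes. At least 1.5-fold lower were 6 genes, Nuf2, Bub1, Ccnb2, Cenpa, Mad2l1 and Sgo1, and 1 was higher by that much, Birc5. At day 3 the citalopram array was above the untreated array in 1 of 51, with a median gap of -0.27, and at day 7 in 0 of 51, with a median gap of -0.61.

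Nuf2, a kinetochore subunit, read 10.69 and 10.54 without citalopram and 10.49 and 9.67 with it. Ccnb2, cyclin B2, read 12.002 and 11.74 without citalopram and 11.77 and 11.02 with it. Cenpa, the centromeric histone, read 10.74 and 10.95 without citalopram and 10.51 and 9.89 with it. In each of the 3 the citalopram day 7 array held the lowest of the 4 values. None passed limma, which tests a change shared by both courses (adjusted p 0.134, 0.0837 and 0.577). Birc5, the mitotic regulator survivin, was higher at day 7 in both courses (0.59 and 0.45) and rose (adjusted p 0.0475).

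The DNA replication and S phase genes were lower in 36 of 41 with citalopram, against 55.8% of all genes, and in 24 of 41 without it, against 52.8%, with medians of -0.27 and -0.03. The largest differences were those of Chaf1b, a chromatin assembly subunit (-0.80), Ccne1, cyclin E1 (-0.75), and Rfc5, a clamp loader subunit (-0.71). Chaf1b was 10.88 on both day 3 arrays, 10.79 without citalopram at day 7 and 10.09 with it. None of the 41 passed limma. Replication-dependent histone genes did not follow: 11 of 21 were higher and 10 lower, with a median of 0.04 that turned to -0.03 after quantile normalization. H4c6 was 10.72 and 11.85 with citalopram and 11.54 and 11.80 without it, so its low value was the citalopram day 3 array. Histone genes have near-identical copies and their single values are uncertain. Growth arrest and p53 target genes were higher in 16 of 27 in both courses, with a median of 0.12 with citalopram and 0.03 without it. Zmat3 (0.64) and Gadd45a (0.59), both p53 targets, were 1.5-fold higher with citalopram and did not pass limma.

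Promoters of mitosis genes hold known control elements, a CCAAT box and the cell cycle homology region, which was searched here only as the letters TTTGAA. Other spellings of that region were not searched, so a gene without TTTGAA may still hold it. Both motifs were searched on both strands in RefSeq windows of 300 bases around the gene start on GRCm38.p6. TTTGAA occurred in 33 of 42 mitosis genes that have a window (78.6%) and in 18.5% of 17492 protein-coding genes. CCAAT occurred in 31 of the 42 (73.8%) and in 42.3% of all. Windows of the 3 mitosis genes with the largest differences are shown, with both motifs in capitals on either strand. A match is a description of letters and not a bound site.
Nuf2, neither motif (chr1:169531415-169531714, - strand): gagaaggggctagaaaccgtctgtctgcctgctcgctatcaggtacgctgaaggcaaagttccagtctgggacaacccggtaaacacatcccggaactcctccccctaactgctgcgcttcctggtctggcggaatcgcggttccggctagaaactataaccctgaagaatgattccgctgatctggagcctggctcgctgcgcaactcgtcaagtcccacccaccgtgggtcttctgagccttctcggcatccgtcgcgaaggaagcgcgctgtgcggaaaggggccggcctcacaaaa
Bub1, CCAAT (chr2:127831810-127832109, - strand): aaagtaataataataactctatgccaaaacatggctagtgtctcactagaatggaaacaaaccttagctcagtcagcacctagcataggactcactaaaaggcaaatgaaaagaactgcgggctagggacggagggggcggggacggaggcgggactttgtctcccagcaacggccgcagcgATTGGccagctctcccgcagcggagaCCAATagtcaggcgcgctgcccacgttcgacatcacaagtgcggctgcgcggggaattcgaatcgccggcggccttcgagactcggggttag
Ccnb2, TTTGAA and CCAAT (chr9:70421505-70421804, - strand): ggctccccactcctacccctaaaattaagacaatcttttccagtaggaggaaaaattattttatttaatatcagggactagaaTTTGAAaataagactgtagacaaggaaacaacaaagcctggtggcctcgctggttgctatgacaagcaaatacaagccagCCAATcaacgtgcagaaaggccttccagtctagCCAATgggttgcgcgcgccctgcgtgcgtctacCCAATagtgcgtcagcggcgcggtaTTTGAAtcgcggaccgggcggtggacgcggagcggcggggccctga

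Nuf2 held 0 matches to either motif, Bub1 held 0 to TTTGAA and 2 to CCAAT, and Ccnb2 held 2 and 3, while the 3 genes differed by -0.82, -0.76 and -0.75. Of the other 3 genes past 1.5-fold lower, Cenpa held 1 match to TTTGAA, and Mad2l1 and Sgo1 held 0. In the S phase list TTTGAA occurred in 4 of 33 genes, and the E2F letters TTTCCCGC and TTTGGCGC each in 6 of 33, against 1.61% and 0.73% of all genes.

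**Figure D3:**
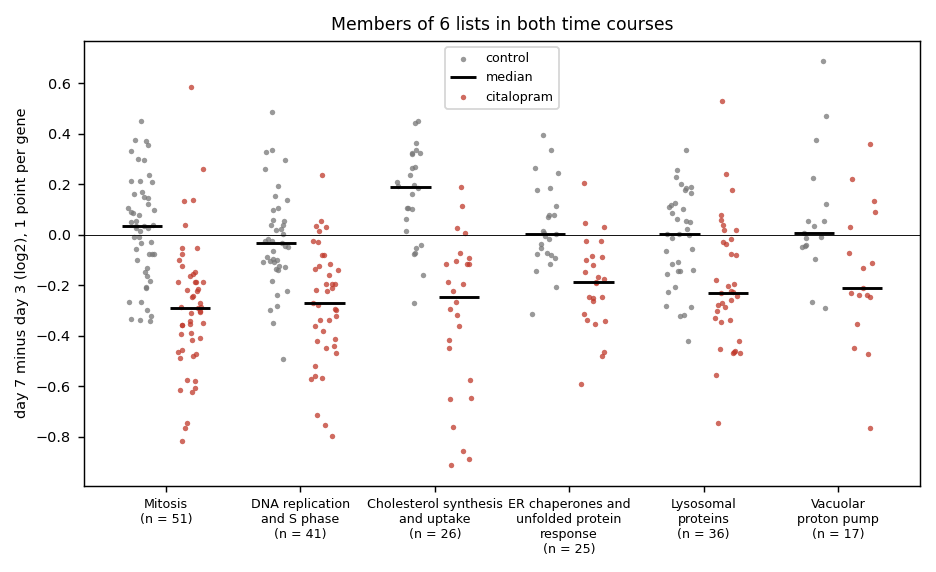
Day 7 minus day 3 (log2) of every list member past the floor, 1 point per gene, without citalopram (grey) and with it (red), with the median of each as a bar, for 6 lists. The red medians lie between -0.29 and -0.19, and the grey medians lie between -0.03 and 0.03 except that of the cholesterol genes at 0.19.

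Genes of cholesterol synthesis and uptake crossed over between the days. Of 26 past the floor, 22 were lower at day 7 with citalopram, against 55.8% of all genes. Without it 20 were higher, against 47.2%, and the medians were -0.25 and 0.19. The citalopram difference was the lower in 24 of 26, against 54.8% of all genes. At day 3 the citalopram array stood above the untreated array in 25 of 26 genes, by a median of 0.22, and at day 7 it did so in 3 of 26, with a median gap of -0.27. The 6 genes at least 1.5-fold lower were Stard4, Mvk, Hsd17b7, Lss, Msmo1 and Mvd, and 0 of the 26 passed limma. That test looks for a change shared by both courses, and differences of opposite sign offset each other in it. The difference between the courses was not tested, since it leaves no degree of freedom.

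Mvk, mevalonate kinase near the start of the pathway, read 9.04 and 8.87 without citalopram and 9.22 and 8.34 with it. Hsd17b7, a ketosteroid reductase near its end, read 10.02 and 10.08 without citalopram and 10.67 and 9.82 with it. Fdft1, squalene synthase, read 10.90 and 11.16 without citalopram and 11.19 and 10.62 with it. In all 3 the citalopram array was the highest of the day 3 arrays and the lowest of the day 7 arrays. Stard4, a carrier of cholesterol, differed by -0.91 with citalopram and by -0.27 without it. Srebf2, a membrane-bound transcription factor of the pathway, was 10.32 and 10.10 with citalopram, against 9.85 and 10.18 without it. Abca1, which exports cholesterol, went the other way, at 6.04 and 6.15 with citalopram and 5.93 and 5.88 without it, values close to the floor.

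The CCAAT box is also part of promoters that respond to the sterol-sensing factor SREBP. It occurred in 19 of the 21 cholesterol genes with a RefSeq window (90.5%), and a sterol element spelled TCACNCCAC in 1 of 21, against 1.41% of all genes. Windows of the 2 synthesis enzymes with the largest differences are shown, with CCAAT in capitals on either strand, 5 matches in Mvk and 3 in Hsd17b7.
Mvk (chr5:114444019-114444318, + strand): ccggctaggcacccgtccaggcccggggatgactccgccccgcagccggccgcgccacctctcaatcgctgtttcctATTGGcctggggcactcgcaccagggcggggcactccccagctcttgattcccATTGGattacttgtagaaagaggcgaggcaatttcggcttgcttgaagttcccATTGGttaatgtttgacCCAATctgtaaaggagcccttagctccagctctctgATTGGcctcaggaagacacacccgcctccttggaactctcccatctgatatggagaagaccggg
Hsd17b7 (chr1:169969156-169969455, - strand): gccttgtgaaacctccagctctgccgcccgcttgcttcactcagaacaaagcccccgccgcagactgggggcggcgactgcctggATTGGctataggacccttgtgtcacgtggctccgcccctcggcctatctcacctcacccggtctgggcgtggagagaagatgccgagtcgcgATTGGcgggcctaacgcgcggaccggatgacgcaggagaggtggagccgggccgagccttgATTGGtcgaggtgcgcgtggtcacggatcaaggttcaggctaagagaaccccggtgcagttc

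Fatty acid synthesis and desaturation genes had the same pattern with smaller values, with medians of -0.18 and 0.13. With citalopram 11 of 15 were lower, against 55.8% of all genes, and without it 11 of 15 were higher, against 47.2%. Elovl6, an elongase, was 10.34 and 9.60 with citalopram and 9.85 and 9.81 without it. Acsl4, which activates arachidonic acid, differed by -0.68 with citalopram and -0.16 without it. Neither passed limma.

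Lysosomal hydrolases and membrane proteins were lower in 28 of 36 with citalopram, against 55.8% of all genes. Without it 17 of 36 were lower, against 52.8%, and the medians were -0.23 and 0.00. Their gap between citalopram and control was 0.10 at day 3 and -0.05 at day 7. Ctsh, a cathepsin, was 9.58 and 8.84 with citalopram, and Tpp1, a peptidase, was 11.80 and 11.25 with it but 11.37 and 11.56 without it. Scarb2, a membrane protein that carries glucocerebrosidase to lysosomes, was higher by 0.53. Subunits of the vacuolar proton pump, which acidifies these compartments, were lower in 12 of 17, against 55.8% of all genes. Their median was -0.21 against 0.01 without citalopram. The citalopram difference was the lower in 16 of 17, against 54.8% of all genes. Atp6v0d2 was 6.90 and 6.13 with citalopram and 5.95 and 5.68 without it. Autophagy genes did not share this: 16 of 26 were lower in both courses, with medians of -0.04 and -0.04. No member of these 3 lists passed limma.

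Of 25 chaperones and unfolded protein response genes of the endoplasmic reticulum, 22 were lower with citalopram and 12 without it. The shares over all genes were 55.8% and 52.8%. The list medians were -0.19 and 0.00, and the citalopram difference was the lower in 24, against 54.8% of all genes. Xbp1, a transcription factor of that response, was 11.48 and 10.89 with citalopram and 11.30 and 11.09 without it. Collagen processing enzymes were lower in 12 of 16, against 55.8% of all genes, with a median of -0.19 against 0.02 without citalopram. They were led by P4ha2, a prolyl hydroxylase (-0.55), Bmp1, the procollagen peptidase (-0.52), and Plod1, a lysyl hydroxylase (-0.50). The exception was P3h2, a prolyl 3-hydroxylase, which rose by 0.67 (adjusted p 0.0147). Genes of the amino acid response that ATF4 controls were mixed. With citalopram 16 of 29 were higher, against 44.2% of all genes, and without it 22 of 29, against 47.2%. Trib3, a pseudokinase (0.89), and Ddit3, the stress factor CHOP (0.66), had the largest citalopram differences. Trib3 was 8.03 and 8.08 without citalopram and 7.78 and 8.67 with it (adjusted p 0.196). Antioxidant genes of the NRF2 pathway were higher in 18 of 25 with citalopram and in 19 of 25 without it, where 44.2% and 47.2% of all genes were. Nqo1, a quinone reductase, was 12.19 and 12.69 with citalopram (adjusted p 0.039).

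**Figure D4:**
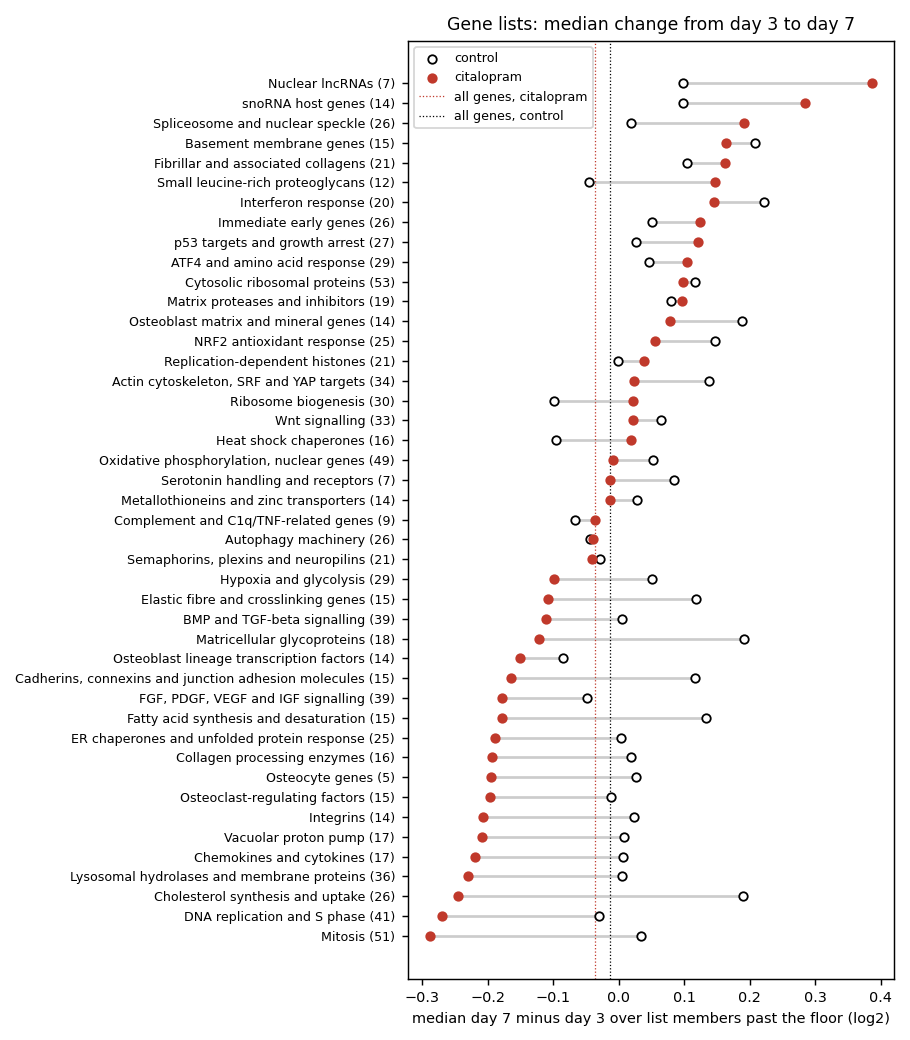
Median day 7 minus day 3 (log2) of each gene list with at least 5 members past the floor (number in brackets), with citalopram (filled) and without it (open), and the medians over all genes as dotted lines. The lowest citalopram medians are those of mitosis (-0.29), DNA replication (-0.27) and cholesterol genes (-0.25).

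The osteoblast genes that were measured gave no common direction. Of 21 matrix and mineral genes listed, 3 were not analysed, and no values are given here for Runx2, Bglap or Spp1. Matrix and mineral genes were higher in 7 of 14 and lower in 7 with citalopram, and higher in 10 and lower in 4 without it, with medians of 0.08 and 0.19. The citalopram median turned to -0.0797 without a floor and to -0.0079 with the mean of a gene's features. Col1a1, the main collagen of bone, read 12.17 and 12.64 with citalopram and 11.92 and 12.59 without it, and rose by 0.47 and 0.68 (adjusted p 0.039). Omd, the keratan sulphate proteoglycan osteomodulin, was 6.52 and 7.36 with citalopram and 6.66 and 6.89 without it (adjusted p 0.0971). Ogn, osteoglycin, was 12.22 and 12.69 with citalopram and 11.94 and 11.997 without it, and Mgp, an inhibitor of mineral deposition, was 12.20 and 12.74 against 12.08 and 12.44. Neither passed limma.

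Some mineral genes moved the other way. Dmp1, a phosphoprotein of mineralising matrix and osteocytes, fell from 8.71 to 7.10 with citalopram and from 8.50 to 7.19 without it (differences -1.61 and -1.32, adjusted p 0.00111). Ank, which exports pyrophosphate, fell from 11.23 to 10.18 with citalopram and from 10.97 to 10.47 without it (adjusted p 0.0328). For both genes the day 7 arrays lay below the day 3 arrays in both courses. The phosphate transporters Slc20a1 and Slc20a2 were lower with citalopram (-0.28 and -0.46) and higher without it (0.39 and 0.05). All 5 osteocyte genes past the floor were lower with citalopram, against 55.8% of all genes, and 3 were higher and 2 lower without it. They were Dmp1, Hyou1 (-0.35), Capg (-0.19), Cdh2 (-0.16) and Pdpn (-0.16), and Dmp1 alone was 1.5-fold lower. Hyou1 is also a member of the endoplasmic reticulum list. Sost, Phex, Mepe, Fgf23 and Reln did not reach the floor with citalopram, and Sost alone of these reached it in the untreated pair.

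Of 14 lineage transcription factors past the floor, 9 were lower, against 55.8% of all genes, and 5 higher. Without citalopram 10 were lower, against 52.8%, and 4 higher. Twist1, which restrains bone differentiation, rose from 8.38 to 8.96 (adjusted p 0.0493), while its relative Twist2 was 7.68 and 7.16. Sp7 differed by -0.45 with citalopram and by -0.07 without it, and its highest value was that of the citalopram day 3 array. Lef1, a nuclear partner of Wnt signalling, was 8.72 and 8.11. Dlx5 (-0.24), Msx2 (-0.10) and Cbfb (-0.16) differed by less. Of these, only Twist1 passed limma.

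**Figure D5:**
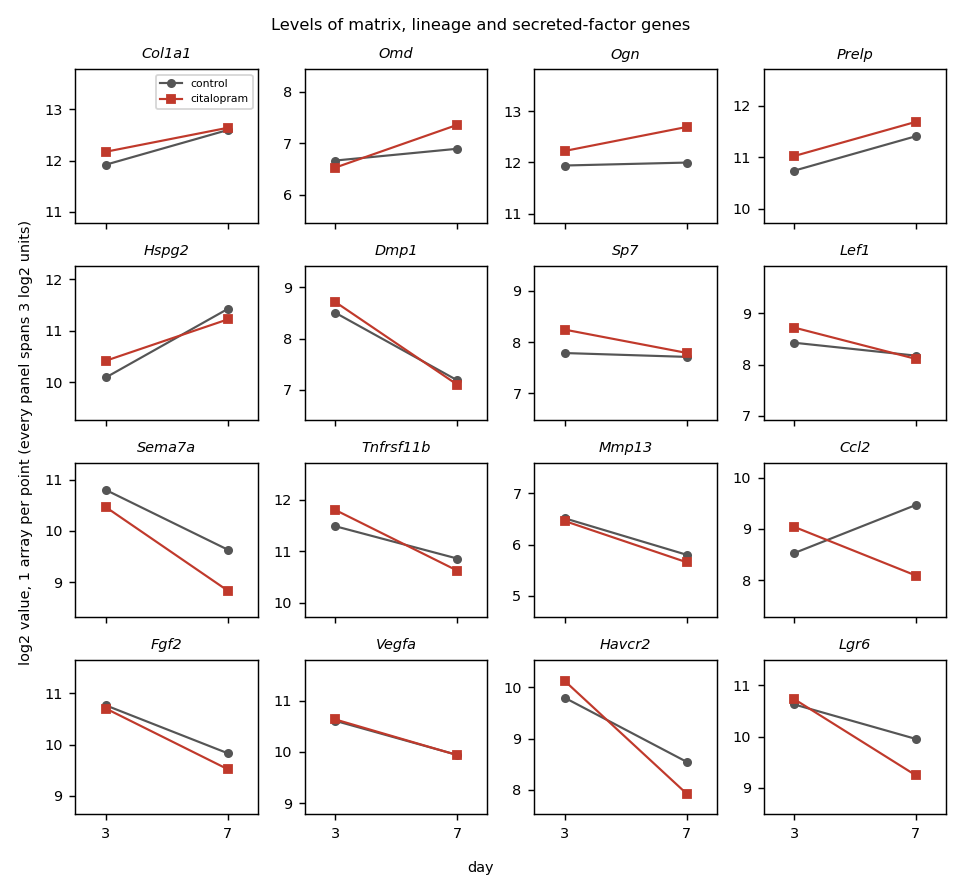
Log2 level at day 3 and day 7 of 16 matrix, lineage and secreted-factor genes, 1 array per point, without citalopram (grey circles) and with it (red squares), each panel spanning 3 log2 units. Dmp1, Fgf2, Vegfa and Mmp13 have nearly parallel lines, the lines of Havcr2, Lgr6 and Sema7a are steeper with citalopram, and those of Ccl2 cross.

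Matrix genes divided by kind. Fibrillar and associated collagens were higher in 14 of 21 in both courses, with medians of 0.16 and 0.10. Over all genes 44.2% were higher with citalopram and 47.2% without it. Col2a1, the cartilage collagen, rose by 0.49 with citalopram and 1.22 without it (adjusted p 0.0397). Basement membrane genes were higher in 10 of 15, against 44.2% of all genes. Hspg2, the proteoglycan perlecan, was 10.42 and 11.22 with citalopram and 10.09 and 11.42 without it. Lamb2, a laminin chain, was 9.45 and 10.14 with citalopram, and both genes rose (adjusted p 0.00842 and 0.012). Small leucine-rich proteoglycans were higher in 9 of 12, against 44.2% of all genes, with a median of 0.15 against -0.04 without citalopram. The citalopram median was 0.0403 after quantile normalization. Prelp rose by 0.67 in both courses (adjusted p 0.0164). Dcn, decorin, differed by -0.42 with citalopram. Aspn, asporin of the same family, was 12.19 and 12.39 with citalopram but 12.12 and 11.29 without it, a gap of 1.02 between the courses.

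Elastic fibre genes were lower in 12 of 15 with citalopram, against 55.8% of all genes. Without it 12 of 15 were higher, against 47.2%, and the medians were -0.11 and 0.12. Loxl3, a crosslinking oxidase, was 11.28 and 10.61 with citalopram. Matricellular glycoproteins were lower in 12 of 18, against 55.8% of all genes, with a median of -0.12 against 0.19 without citalopram. The citalopram difference was the lower in 16, against 54.8% of all genes. Srpx2, a secreted sushi-repeat protein, fell from 8.59 to 6.84 (adjusted p 0.00303), and Tgfbi, Ccn2 and Tnc, all induced by TGF-beta, were lower (-0.60, -0.51 and -0.49) without passing limma. Of the matrix proteases, Mmp13, collagenase 3, fell from 6.46 to 5.66, and Plat, tissue plasminogen activator, from 9.94 to 9.29. Adamts5, an aggrecan-cleaving protease, rose from 9.91 to 10.55 (adjusted p 0.0153), and Adamts4 was 8.27 and 7.37 (adjusted p 0.0574).

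Of 15 genes that act on osteoclasts, 13 were lower with citalopram and 8 without it, against 55.8% and 52.8% of all genes. With citalopram 5 were at least 1.5-fold lower, against 2.81% of all genes, and 3 fell by limma, against 1.49%. Tnfrsf11b, osteoprotegerin, the decoy that binds RANKL, read 11.81 and 10.62 with citalopram and 11.49 and 10.86 without it (adjusted p 0.0175). Sema7a, a membrane semaphorin that acts on osteoclasts and osteoblasts, read 10.46 and 8.84 with citalopram and 10.80 and 9.63 without it (adjusted p 0.00228). Tnfsf11, RANKL itself, was 7.08 and 6.89, and Csf1, the growth factor of osteoclast precursors, was 12.10 and 11.98.

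Growth factor genes and their feedback inhibitors were lower in 25 of 39 with citalopram, against 55.8% of all genes, and in 23 of 39 without it, against 52.8%, with medians of -0.18 and -0.05. Fgf2, a basic fibroblast growth factor, fell from 10.70 to 9.52 with citalopram and from 10.76 to 9.83 without it (adjusted p 0.00398). Vegfa fell from 10.63 to 9.94 with citalopram and from 10.61 to 9.94 without it, and Dusp6, a phosphatase induced by ERK, fell by 0.70 and 0.53. These 3 had citalopram values close to the untreated ones. Irs1, an adaptor of insulin and IGF receptors, was 11.50 and 12.21 with citalopram and 10.84 and 11.06 without it, and Igfbp5, which binds IGFs in bone, differed by -0.59 with citalopram and by 0.21 without it.

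In the BMP and TGF-beta list 27 of 39 were lower, against 55.8% of all genes, with a median of -0.11 against 0.01 without citalopram. Fstl3, which binds activin, fell from 9.49 to 8.30 (adjusted p 0.0155), Grem1, a BMP antagonist, was 11.94 and 11.15, and Tgfb1 was 10.28 and 9.54. Tgfbr2, a TGF-beta receptor, rose from 10.59 to 11.19 (adjusted p 0.0304). Wnt genes were split, 19 of 33 higher with a median of 0.02 that turned to -0.02 after quantile normalization. Lgr6, a receptor of R-spondins, fell from 10.73 to 9.25 with citalopram and from 10.63 to 9.96 without it (adjusted p 0.021). Rspo2, an R-spondin, rose from 8.31 to 8.95 (adjusted p 0.0348), and Lrp4, a co-receptor that binds sclerostin, rose from 9.19 to 9.73 with citalopram and from 8.52 to 9.51 without it.

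Chemokine and cytokine genes were lower in 13 of 17 with citalopram, against 55.8% of all genes, and 5 were 1.5-fold lower, against 2.81%. Their median was -0.22 against 0.01 without citalopram, and the citalopram median was -0.1002 without a floor. Ccl2, the monocyte attractant MCP-1, read 9.04 and 8.09 with citalopram and 8.53 and 9.47 without it. Ccl7 read 8.13 and 7.37 with citalopram and 7.59 and 8.21 without it. In both genes citalopram was the higher array at day 3 and the lower at day 7, and the untreated difference had the opposite sign. Ccl9 (-0.88), Il6 (-0.73) and Ptgs2, cyclooxygenase 2 (-0.60), were lower with citalopram, with untreated differences of -0.05, -0.13 and -0.15. Il6 reached the floor only on the citalopram day 3 array. No gene of the list passed limma. That test looks for a change shared by both courses, and opposite differences such as those of Ccl2 and Ccl7 offset each other in it.

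Interferon response genes were higher in 14 of 20 with citalopram and in 16 of 20 without it. Over all genes 44.2% and 47.2% were higher. The list medians were 0.15 and 0.22, and the citalopram median turned to -0.015 after quantile normalization. Ifi35 rose from 8.51 to 9.22 (adjusted p 0.0337). Tap1, a peptide transporter of antigen presentation, was 9.47 and 10.34 with citalopram and 9.60 and 9.84 without it. Usp18, which limits interferon signalling, was 7.83 and 7.29 with citalopram and 7.03 and 7.53 without it.

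Integrins were lower in 11 of 14 with citalopram, against 55.8% of all genes, and in 7 of 14 without it. Itga2, a collagen-binding integrin chain, was 7.49 and 6.22 with citalopram and 7.06 and 6.77 without it (adjusted p 0.0816), and Itga8 fell from 10.00 to 9.38 with citalopram and from 9.94 to 9.07 without it (adjusted p 0.0155). Cadherins, connexins and junction molecules were lower in 12 of 15 with citalopram, against 55.8% of all genes. Without it 10 of 15 were higher, against 47.2%. Cldn1, a tight junction protein, rose from 6.22 to 6.95 with citalopram (adjusted p 0.0155). In the actin list 18 of 34 were higher and 16 lower, with a median of 0.02 that turned to -0.02 after quantile normalization. Cotl1, an actin-binding protein, fell from 10.09 to 8.35, and Ankrd1, a target of YAP, from 12.55 to 11.64 (adjusted p 0.0139). Amotl2, also a YAP target, rose from 10.06 to 10.69 (adjusted p 0.0354).

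Nuclear genes of oxidative phosphorylation had a median of -0.01, with 21 of 49 higher, and this median turned to 0.01 after quantile normalization and 0.03 after cyclic loess. Cytosolic ribosomal protein genes were higher in 43 of 53 with citalopram, against 44.2% of all genes, and in 36 of 53 without it, against 47.2%, by small amounts (medians 0.10 and 0.12). Ribosome biogenesis genes were higher in 15 of 30, although Dkc1, the pseudouridine synthase dyskerin of small nucleolar particles, fell from 11.43 to 10.65 with citalopram and from 11.51 to 10.90 without it (adjusted p 0.0163). Of 24 serotonin genes measured, 7 reached the floor, with a median of -0.01 that became 0.1841 with a floor at the 60th percentile, led by Maoa, the monoamine oxidase, at 9.24 and 9.62. Metallothionein and zinc transporter genes were higher in 7 of 14 and lower in 7.

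The treated course departed from the untreated one by at least 1.5-fold in few genes. The citalopram difference minus the untreated difference was at least 1.5-fold higher in 143 of 12411 genes (1.15%) and lower in 227 (1.83%), and 2-fold higher in 6 (0.0483%) and 2-fold lower in 15 (0.121%). Besides Aspn, the genes with the largest positive gap were Phxr4 (1.10), Hoatz (0.96), Thap2 (0.95) and Thoc2l (0.92). Nupr1, a stress-induced chromatin protein, was 11.45 and 11.90 with citalopram and 11.61 and 11.15 without it (gap 0.90). The largest negative gaps after Ccl2 (-1.89) and Ccl7 (-1.39) were those of Idh1 (-1.23), Adgrg1, an adhesion receptor (-1.22), and Fabp7 (-1.18). Serpinb9b, a serine protease inhibitor, was 9.32 on both citalopram arrays and went from 8.26 to 9.31 without it. For Adgrg1, Fabp7, Idh1 and Serpinb9b the citalopram day 3 array lay above the untreated day 3 array.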

How the data were processed

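RNA of MC3T3-E1 cells was hybridised to Affymetrix whole-transcript arrays. The authors' deposited values are log2 expression values, 1 per feature and array, used as deposited. The base of the logarithm was inferred from their range, 3.90 to 15.5. Partek is named per the submitters' processing notes, without a version, and the handling of background, normalization and probe summaries was not given in the sources used here. These could hide a change shared by all genes, or leave a shift between arrays in place. The number of arrays limits precision.

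The platform annotation gave 21789 of 35556 features a single symbol (61.3%), gave 1621 several and gave 12146 none. Entrez numbers of 21698 were found in a RefSeq table of GRCm38.p6 and 91 were not. The brightest feature stood for each gene, and 999 genes had several. Differences were day 7 minus day 3, with fold limits of 2 and 1.5. A gene was counted when the brighter array of the pair reached that array's 40th percentile.

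The test was limma 3.58.1 (R 4.3.3, lmFit and eBayes, two-sided, Benjamini-Hochberg) with additive treatment and day, which leaves 1 residual degree of freedom, a prior of 7.15 degrees of freedom and a prior SD of 0.11. Treatments stand in for replicates of a day, so the residual spread of a gene comes from the gap between its citalopram and untreated differences. That gap joins technical spread with any response particular to citalopram, and these cannot be told apart. The p-values rest on that gap in these arrays and on the prior, so a gene with unlike differences is less readily called. The fit was also run on simulated data. Their spread was drawn from this same fit and they held no difference between the courses beyond noise, so that run does not check these p-values. Tables were made with Python 3.11.15, pandas 2.3.3 and numpy 2.4.6.

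The 45 pathway and 9 marker lists held 1346 genes, of which 1209 were measured, and the others were not analysed here. The members, lists and rules were chosen with earlier results of these data known, so no list is independent evidence. Named genes are the 25 highest and 25 lowest in the citalopram difference, the 10 highest and 10 lowest against control, the list members past 1.5-fold (or the 4 largest), all members of the osteoblast, nuclear RNA, host gene and vault lists, and the 4 highest and 4 lowest small nucleolar or Cajal body RNAs, with symbols of predicted, olfactory, vomeronasal, microRNA and small nucleolar RNA genes (but not of small Cajal body RNAs) left out of the overall ranks. MicroRNA genes, the genes that overlap small RNAs, Fdft1, Srebf2, Abca1, Tnfsf11 and Csf1 were named after their values were seen. Alternatives were equal array medians, quantile normalization, cyclic loess, no floor, a 60th percentile floor, the mean of features, protein-coding genes only, limma with an intensity trend and limma with day alone. Features of Gas5 read 1 by 1 and a list of very large proteins were added after the data were seen.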

Additional observations from a re-analysis of the deposited data

Results flagged for a closer look

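Ccl2 and Ccl7 moved in opposite directions in the 2 courses. Their citalopram difference minus their untreated difference was -1.89 and -1.39, and whether the courses differ was not tested, since 1 array per group leaves no degree of freedom for it. Both genes attract monocytes, and the macrophage and osteoclast markers beside them reached the floor in 3 of 12, with a summed linear level of 1478 at day 3 and 1258 at day 7 with citalopram.

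In 5 pathway lists the median was at least 0.1 below 0 with citalopram and at least 0.1 above 0 without it. Other lists, mitosis among them, also had medians of opposite sign, with at least 1 of the pair closer to 0. The median of the citalopram difference minus the untreated difference was -0.55 for cholesterol synthesis and uptake, -0.39 for fatty acid synthesis, -0.30 for elastic fibre genes, -0.30 for matricellular glycoproteins and -0.19 for cadherins, connexins and junction molecules, against -0.03 over all genes. In cholesterol genes both ends moved, with a citalopram minus control gap of 0.22 at day 3 and -0.27 at day 7. In elastic fibre genes the gaps were 0.13 and -0.13, and in fatty acid genes 0.14 and -0.15. These differences were not tested.

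Features that carry no gene symbol gave 989 that were at least 2-fold higher at day 7 with citalopram, against 306 in untreated cells, a signal outside the named genes of the report.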

How the results depend on the processing

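No paired analysis was possible because each group has 1 array and the labels give no shared replicate numbers. For the same reason no array could be left out of a group. The counts of the citalopram difference at 2-fold and 1.5-fold stayed within 1.5 times of the reported ones under each alternative scaling and floor. Of 297 named genes, 17 with reported differences between -0.04 and 0.18 changed sign under at least 1 setting, among them Snord16a (0.0154) and Eef2 (-0.0007) after quantile normalization and Serpinb9b (0.0028) with equal medians. Of the 586 genes past 1.5-fold, 581 kept that size and direction with equal medians, 489 after quantile normalization, 539 after cyclic loess and 565 with the mean of features, and 0 turned. Quantile normalization changed the share of higher genes among 2-fold genes from 53.5% to 41.0%. Without non-coding genes that share was 19.6%, with 11 genes 2-fold and 148 genes 1.5-fold higher with citalopram, 10 and 88 without it, and 1 gene 2-fold higher against control. A 60th percentile floor left 2 and 9 genes 2-fold, and 85 and 136 genes 1.5-fold, higher and lower against control. The limma day counts of 163 higher and 185 lower depended most on the setting. They were 279 lower with equal medians, 459 and 1085 after quantile normalization, 436 and 582 after cyclic loess, 99 and 91 without a floor, 299 and 445 with the stricter floor, 83 higher over protein-coding genes and 44 and 24 with day alone. The cause was not tested. List medians changed sign in 20 combinations of list and setting, and in 9 of them by less than 0.1. After quantile normalization interferon genes gave -0.015, epithelial markers -0.0226 and neural markers -0.1652. Without a floor basement membrane genes gave -0.0088, epithelial markers -0.0062, osteoblast matrix and mineral genes -0.0797, pre-osteoblast markers -0.0786 and neural markers -0.0781. With the stricter floor skeletal muscle markers gave 0.0167, serotonin genes 0.1841 and chondrocyte markers 0.1326.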

Other observations

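Genes of very large proteins were higher at day 7 in both courses. The list was written after Ahnak, Ahnak2, Syne1, Mdn1, Rnf213, Hspg2 and Flnc had been seen among the highest genes, so its counts are a description. Of 56 members past the floor, 49 were higher with citalopram and 53 without it, with medians of 0.42 and 0.41. Over all genes 44.2% and 47.2% were higher. In each course 14 members were 1.5-fold higher, against 2.0% of all genes with citalopram and 1.16% without it. Without the 7 genes that led to it, 42 of 49 were higher, with medians of 0.36 and 0.37. Ahnak, a giant scaffold beneath the cell membrane, was 11.21 and 12.15 with citalopram and 11.11 and 11.82 without it. Mdn1, the ribosome assembly ATPase midasin, was 9.23 and 10.10 against 9.11 and 9.70.

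Vaultrc5, an RNA of the vault particle, read 7.06 on both day 3 arrays, 9.76 at day 7 without citalopram and 10.06 with it. Mvp, the protein that forms the shell of the vault, read 9.12 and 9.46 with citalopram and 9.12 at both days without it.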
